A study of Danio rerio with 6 samples.

Results

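The genes examined here encode the enzymes of glycolysis and gluconeogenesis, read in atrial cardiomyocytes (CMs) of the zebrafish embryonic heart at 48 and 72 hours post fertilization (hpf). They are the rows of the deposited table whose KEGG pathway annotation lists Glycolysis / Gluconeogenesis and whose mean raw count over the 6 libraries was above 5. This rule found 59 of the 69 genes listed under that term, among 23000 genes in the table, and of the 10 genes left out 2 had no count in any library. RNA was sequenced in bulk from 3 libraries per stage, all from embryos labelled wild-type. Hearts were dissected from Tüb/AB embryos bearing myh6:mTagBFP2, a blue reporter of atrial CMs, myh7:mCherry-NTR, a red reporter of ventricular CMs that also carries nitroreductase, and 7XTCF-Sia:eGFP, a green reporter of Wnt/β-catenin signalling. Pooled hearts were sorted for blue cells without green signal, a gate that also took cells with low red signal, so the RNA is that of a gated pool and not of single hearts. Transgenes and gate were shared by both stages, no group without them was analysed here, and stage is what separates the groups. The comparison asks which of these genes differ between the stages.

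Glycolysis splits glucose into pyruvate through a chain of cytosolic enzymes, and lactate dehydrogenase interconverts pyruvate and lactate. Gluconeogenesis runs most of the same reversible steps backwards and uses its own enzymes, glucose 6-phosphatase, fructose bisphosphatase and phosphoenolpyruvate carboxykinase, to pass the irreversible ones. Pyruvate dehydrogenase links the chain to the mitochondrial citrate cycle, and the KEGG term also holds enzymes of alcohol, aldehyde and acetate metabolism. In vertebrates the embryonic heart is known to rely heavily on glycolysis, and many steps have several isozymes encoded by paralogs, of which zebrafish often kept an additional copy after the teleost genome duplication.

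Most of these genes had similar counts at both stages, and the lowest p-value was that of g6pcb, a glucose 6-phosphatase gene with 7.13-fold more normalized counts at 72 hpf. The test was edgeR's quasi-likelihood test on TMM-scaled counts, over all 16100 genes with a mean normalized count above 5, and a gene was called at an adjusted p-value below 0.05 and a change beyond 1.5-fold. Of the 59 genes, which all passed this filter, 0 were called higher at 72 hpf and 0 were called lower. Over all genes tested 0.00621% were called higher and 0% lower (1 gene and 0 genes). When p-values from edgeR were not adjusted, and 0.05 was the limit, 6 of the genes were higher at 72 hpf (g6pcb, hk1, gpib, pfkpa, aldh9a1b and aldh16a1), where 3.12% of all genes were. At the same limit 2 were lower (acss1 and eno1b), where 5.63% of all genes were. With DESeq2, 1 of the genes was called higher (g6pcb) and 2 were called lower (acss1 and eno1b), against 1.13% and 2.73% of all genes. Unadjusted p-values of DESeq2 under 0.05 were found for 8 genes higher and 2 lower, against 5.93% and 9.58% of all genes.

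**Figure D1:**
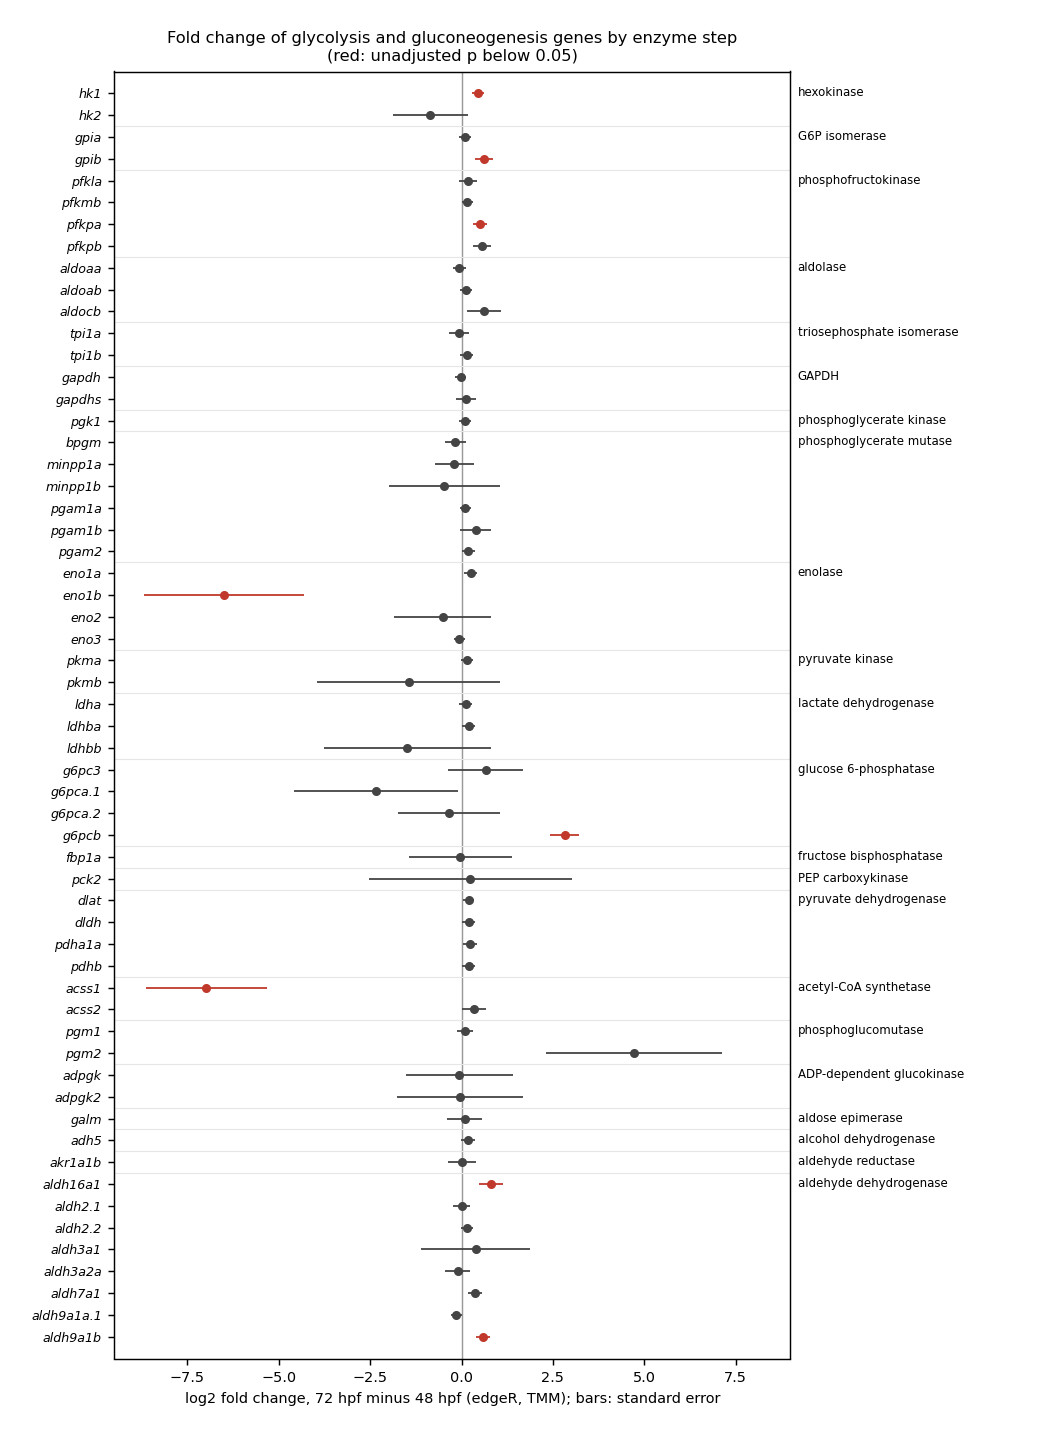
Log2 fold change between 72 and 48 hpf for the genes of the list (1 is not drawn), grouped by enzyme step, with edgeR's standard error as bars and genes with an unadjusted p below 0.05 in red. Most genes lie close to 0, while g6pcb at 2.83 stands to the right with a short bar and acss1 and eno1b stand far to the left with long bars.

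The estimate was above 0 for 38 of the 59 genes, and for 48.4% of all genes tested. The direction varied with abundance. It was above 0 for 4 of 16 genes with a mean under 100 raw counts, 19 of 25 with 100 to 1000 and 15 of 18 above 1000. In these bands the median log2 fold change was -0.49, 0.16 and 0.15 for the list and -0.16, 0.00 and 0.05 for all genes tested. Over the 59 genes the median log2 fold change was 0.12, against -0.02 over all genes. The middle of the list was narrow, from a lower quartile of -0.07 to an upper quartile of 0.25, whereas all genes spanned -0.55 to 0.36 between the same quartiles. The median of the 59 genes depended on library scaling and on a single library. With equal library sizes, a setting added after the data were seen, it was 0.02 and that of all genes was -0.17, while 33 of the genes had an estimate above 0 and 1 was higher at an unadjusted p-value under 0.05. Without replicate 2 at 48 hpf the median was 0.01, that of all genes was -0.00, and 30 of the genes had an estimate above 0. Without replicate 3 at 48 hpf the median was 0.26.

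Library totals lay between 3577234 and 5629941 counts, and 3 counts, taken as the floor of a library, were 0.533 to 0.839 CPM (counts scaled to a common library total). Values of a stage are listed here in the order of its replicates 1, 2 and 3. The myh6 gene, which defines atrial CMs, had 6919 to 7877 raw counts in every library. In CPM it was less even, at 1479, 1265 and 1873 in the 48 hpf libraries and 1734, 1628 and 1944 in the 72 hpf libraries. The summed level of the 59 genes was 9525, 7257 and 10315 CPM for the 48 hpf libraries and 10127, 9729 and 10988 CPM for those of 72 hpf. Replicate 2 at 48 hpf was the lowest, and replicate 3 at 48 hpf lay within the range of 72 hpf. In raw counts the sums were closer, at 44989, 40855 and 38108 in the 48 hpf libraries and 45994, 43437 and 39308 in the 72 hpf libraries, although replicate 2 at 48 hpf had the largest library. Of the 18 genes with a mean above 1000 raw counts, 16 varied less over the 6 libraries than the library totals did. The totals had a coefficient of variation of 16.9%, and these 16 genes had one of 4.81 to 10.4% (the other two are hk1 and pfkpa). Of all 814 genes with such a mean, 58.0% varied less than the totals. The authors removed duplicate reads from single-end data, which limits a gene to the number of distinct read starts on its transcripts, and the part of this limit in the counts of abundant genes was not tested. For these genes raw counts are therefore given beside the fold changes.

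**Figure D2:**
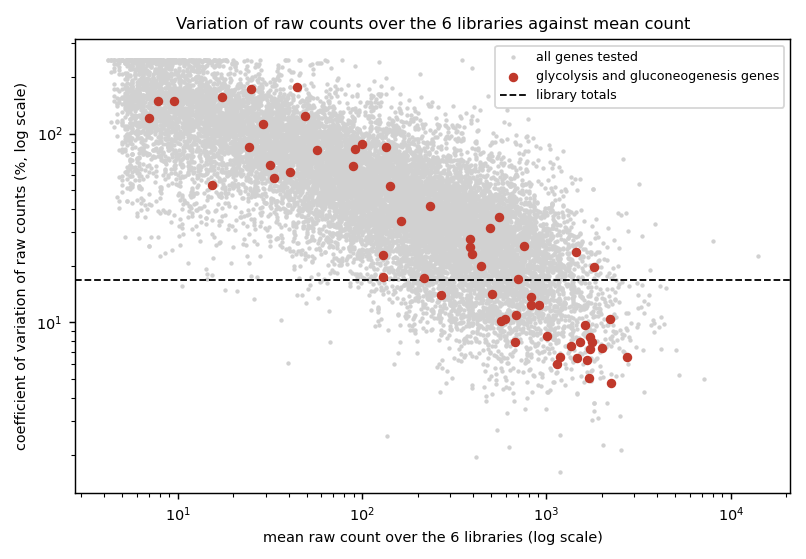
Coefficient of variation of raw counts over the 6 libraries against the mean raw count, both on log scales, for the 59 genes (red) and all genes tested (grey), with that of the library totals as a dashed line at 16.9%. The abundant glycolytic genes at the lower right lie under the line, between 4.81 and 10.4%, except hk1 at 23.5% and pfkpa at 19.8%.

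Among the enzymes particular to gluconeogenesis, glucose 6-phosphatase releases free glucose from glucose 6-phosphate. Its gene g6pcb (chromosome 3 of danRer11 from 32906082 to 32912787) had 38, 44 and 26 raw counts in the 48 hpf libraries and 301, 217 and 182 in the 72 hpf libraries. Every library at 72 hpf was thus far above every library at 48 hpf. Scaled by TMM these were 34.1 ± 2.23 (SD, n = 3) and 243 ± 39.6 (SD, n = 3) normalized counts, a log2 fold change of 2.83 ± 0.40 (SE; standard errors here derive from the F statistic of edgeR). The adjusted p was 0.173 with edgeR's quasi-likelihood test and 5.05e-10 with DESeq2. Over 18 other settings the log2 fold change lay between 2.69 and 2.91, and with replicates 1 and 2 only, the libraries that share both cell sorters, it was 2.82. Hepatocytes and the yolk express gluconeogenic genes strongly, and 7 of 9 markers of liver and yolk were found in the table. Of these, fabp10a, which defines hepatocytes, and apoba had 0 to 4 counts in any library, and ttr had 0 in all. The transferrin gene tfa was higher in replicates 1 and 2 of 72 hpf, with 0, 0.533 and 0 CPM in the 48 hpf libraries and 3.08, 23.3 and 0 CPM in the 72 hpf libraries. In raw counts the apolipoprotein gene apoa2 had 11, 0 and 0 and then 17, 15 and 0, apobb.1 had 0, 1 and 0 and then 0, 29 and 0, and apoa1b had 57, 4 and 10 and then 12, 7 and 0. All of these overlapped between the stages. The summed level of this list was 14.8, 2.13 and 2.98 CPM at 48 hpf and 9.47, 35.2 and 0.280 CPM at 72 hpf. It was highest in replicate 2 and lowest in replicate 3 of 72 hpf. In these 2 libraries g6pcb had 48.6 and 50.9 CPM (217 and 182 raw counts). The part of such cells in the counts of g6pcb was not tested.

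The other glucose 6-phosphatase genes did not separate the stages. The gene g6pc3, widely expressed in mammals, had 127, 89 and 5 raw counts in the 48 hpf libraries and 149, 134 and 29 in the 72 hpf libraries, which overlap, and replicate 3 was low at both stages. The neighbouring genes g6pca.1 and g6pca.2 lie 7720 bases apart on chromosome 12 and point in opposite directions. For g6pca.1 the counts were 16, 0 and 19 in the 48 hpf libraries and 0, 6 and 1 in the 72 hpf libraries (log2 fold change -2.34, standard error 2.23), and for g6pca.2 they were 4, 23 and 25 and then 13, 18 and 9. Both overlapped between the stages. As a share of all counts of this enzyme step, g6pcb took 27.8 ± 7.07% at the earlier stage and 68.4 ± 12.6% at the later one (SD, n = 3 each), and the ranges did not overlap. The summed normalized counts of the 4 genes were 130 ± 42.2 at 48 hpf and 363 ± 85.1 at 72 hpf, again without overlap. The fructose bisphosphatase gene fbp1a, whose enzyme opposes phosphofructokinase, had 14, 59 and 32 counts in the 48 hpf libraries and 1, 34 and 50 in the 72 hpf libraries. The mitochondrial phosphoenolpyruvate carboxykinase gene pck2 had 48, 0 and 0 counts in the 48 hpf libraries and 56, 0 and 0 in the 72 hpf libraries, so it was seen in replicate 1 of each stage alone. The cytosolic form, pck1, had 4 counts in replicate 1 at 48 hpf and 0 elsewhere and was not a member by the rule on mean counts.

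**Figure D3:**
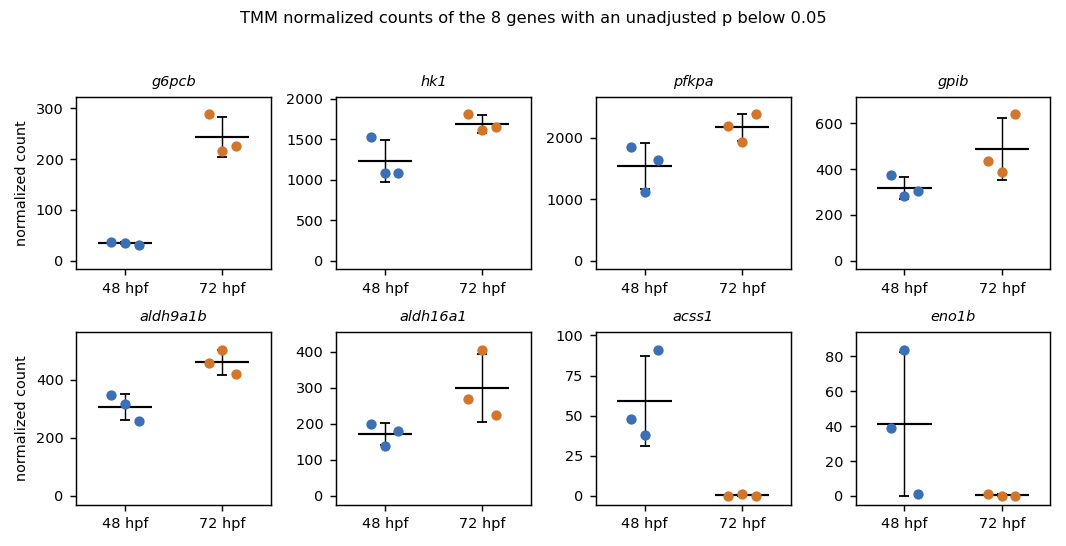
TMM normalized counts of the 8 genes with an unadjusted p below 0.05 in edgeR, with 1 point per library (blue 48 hpf, orange 72 hpf), the mean as a line and the SD as a bar. In g6pcb the 72 hpf points lie above 215 and the 48 hpf points at or under 35.9, while hk1, pfkpa, gpib, aldh9a1b and aldh16a1 separate by small gaps and acss1 and eno1b are close to 0 at 72 hpf.

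At the entry of glycolysis, hexokinase traps glucose in the cell by phosphorylation. The gene hk1 had 1615, 1374 and 888 raw counts in the 48 hpf libraries and 1887, 1623 and 1327 in the 72 hpf libraries, which overlap in raw counts. After scaling, all 72 hpf libraries were higher, from 1231 ± 256 normalized counts (SD over 3 libraries, as elsewhere) at the earlier stage to 1689 ± 106 at the later one, a log2 fold change of 0.46 ± 0.16 (SE; adjusted p = 0.501, edgeR). The insulin-responsive isozyme of mammals is encoded by hk2, which in these libraries had 171, 161 and 35 raw counts in the 48 hpf libraries and 22, 150 and 11 in the 72 hpf libraries. Its log2 fold change was -0.85 with a standard error of 1.02, and replicate 2 at 72 hpf alone lay within the range of 48 hpf. This value rested on single libraries: it was -2.66 without replicate 2 at 72 hpf (adjusted p = 0.475, edgeR), -0.44 and -0.38 without replicates 1 and 3 of that stage, and -0.47 without replicate 1 at 48 hpf. The share of hk1 in the counts of both genes was 89.5 to 96.2% at 48 hpf and 91.5 to 99.2% at 72 hpf. Glucose 6-phosphate isomerase makes the next conversion. Its gene gpia had 1896, 1689 and 1725 raw counts in the 48 hpf libraries and 1909, 1838 and 1551 in the 72 hpf libraries, and these were nearly equal. The paralog gpib had 394, 355 and 249 counts in the 48 hpf libraries and 456, 390 and 515 in the 72 hpf libraries, a log2 fold change of 0.61 ± 0.25 (SE; adjusted p = 0.565, edgeR). The gpib share of the step was 12.6 to 17.4% at 48 hpf and 17.5 to 24.9% at 72 hpf, ranges that only just did not meet, and its log2 fold change was 0.37 without replicate 3 at 72 hpf and 0.33 with replicates 1 and 2 only.

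Phosphofructokinase commits sugar to glycolysis, and the 4 of its genes that met the rule on mean counts all had a higher estimate at 72 hpf. Another, pfkma, had 22 raw counts in replicate 1 at 48 hpf and 0 elsewhere and was not a member by that rule. The platelet-type gene pfkpa had 1955, 1415 and 1349 raw counts in the 48 hpf libraries and 2280, 1952 and 1918 in the 72 hpf libraries. Its normalized counts were 1536 ± 376 and 2168 ± 223 without overlap, a log2 fold change of 0.50 ± 0.19 (SE; adjusted p = 0.558, edgeR), which was 0.31 without replicate 2 at 48 hpf. The second platelet-type gene, pfkpb, had 889, 673 and 400 raw counts in the 48 hpf libraries and 787, 872 and 890 in the 72 hpf libraries, with overlap and a log2 fold change of 0.55. The liver-type gene pfkla and the muscle-type gene pfkmb had estimates of 0.18 and 0.16. Within the step the share of pfkmb was 21.8, 25.6 and 23.4% at 48 hpf and 20.2, 20.4 and 18.8% at 72 hpf, so every later library was lower. Summed over the step, normalized counts were 3361 ± 758 at 48 hpf and 4429 ± 445 at 72 hpf, and they overlapped. With equal library sizes hk1, gpib and pfkpa still had a higher estimate at 72 hpf, but each was above an unadjusted p-value of 0.05.

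From aldolase to lactate dehydrogenase the reads came mostly from genes with little difference between the stages. Of the 18 genes above 1000 raw counts, the 16 other than hk1 and pfkpa had log2 fold changes between -0.06 and 0.25, with standard errors from 0.15 to 0.19 and adjusted p-values from edgeR between 0.737 and 0.989. In raw counts gapdh, which encodes glyceraldehyde 3-phosphate dehydrogenase, had 2855, 2934 and 2808 in the 48 hpf libraries and 2734, 2667 and 2420 in the 72 hpf libraries. Aldolase cleaves fructose bisphosphate, and aldoaa had 2183, 2063 and 2099 raw counts in the 48 hpf libraries and 1955, 1913 and 1773 in the 72 hpf libraries. For both of these genes every raw count was lower at 72 hpf, while their normalized counts overlapped and their log2 fold changes were -0.03 and -0.06. Triosephosphate isomerase is encoded by tpi1b, with 1213, 1112 and 1078 raw counts in the 48 hpf libraries and 1250, 1122 and 1097 in the 72 hpf libraries, and by tpi1a, with a share of 15.4 to 20.7% of the step's counts. Phosphoglycerate kinase makes the first ATP of the pathway, and pgk1 had 1572, 1470 and 1396 raw counts in the 48 hpf libraries and 1576, 1494 and 1337 in the 72 hpf libraries. These values are alike in both stages.

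Phosphoglycerate mutase was represented by pgam1a, with 692, 696 and 634 raw counts in the 48 hpf libraries and 731, 703 and 587 in the 72 hpf libraries, by pgam1b and by the muscle-type gene pgam2. The KEGG term places bpgm and the phosphatase genes minpp1a and minpp1b, whose enzymes act on bisphosphoglycerate, beside them. Of this group bpgm had 250, 261 and 203 raw counts in the 48 hpf libraries and 228, 167 and 184 in the 72 hpf libraries. Its share was 12.7 to 13.7% at 48 hpf and 9.84 to 11.9% at 72 hpf, lower in every later library, whereas its log2 fold change was -0.17 with a standard error of 0.28. Pyruvate kinase yields pyruvate, and pkma had 1872, 1659 and 1589 raw counts in the 48 hpf libraries and 1901, 1692 and 1675 in the 72 hpf libraries. Its paralog pkmb had 196, 0 and 0 in the 48 hpf libraries and 63, 7 and 0 in the 72 hpf libraries, uneven within both stages. For lactate dehydrogenase, ldha had 2382, 2132 and 2191 raw counts in the 48 hpf libraries and 2367, 2248 and 2150 in the 72 hpf libraries, and ldhba, whose mammalian counterpart is the heart-type isozyme, had 1682, 1562 and 1558 and then 1816, 1709 and 1574. The share of ldhba was 41.4, 42.2 and 41.2% at 48 hpf and 43.3, 43.2 and 42.3% at 72 hpf. Every later share was higher, but the lowest at 72 hpf and the highest at 48 hpf differed by less than the spread within a stage.

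Enolase makes phosphoenolpyruvate, and the shares of its main paralogs differed between the stages without overlap. The muscle-type gene eno3 had 1796, 1714 and 1617 raw counts in the 48 hpf libraries and 1597, 1628 and 1331 in the 72 hpf libraries, and eno1a had 1483, 1390 and 1455 and then 1707, 1635 and 1471. As a share of the step eno3 took 53.1, 53.0 and 52.6% at 48 hpf and 48.0, 49.6 and 47.2% at 72 hpf. The share of eno1a was 43.8, 43.0 and 47.3% at 48 hpf and 51.4, 49.8 and 52.2% at 72 hpf. Counts of eno3 exceeded those of eno1a in all 48 hpf libraries. Those of eno1a exceeded those of eno3 in replicates 1 and 3 at 72 hpf, while in replicate 2 both were nearly equal (1635 and 1628). The log2 fold changes were 0.25 for eno1a and -0.06 for eno3, with standard errors of 0.18 and 0.15. The paralog eno1b had 41, 106 and 1 raw counts in the 48 hpf libraries and 1, 0 and 0 in the 72 hpf libraries. Pooled over libraries this is 148 against 1 count. Divided by the total counts of each stage, the ratio between 48 and 72 hpf was 133. Its exact 95% interval was 23.4 to 5272 and covers counting error only. Replicate 3 at 48 hpf had the same single count as replicate 1 at 72 hpf, and the adjusted p was 0.487 with edgeR and 0.0239 with DESeq2. The neuronal gene eno2 had 64, 24 and 3 counts in the 48 hpf libraries and 19, 20 and 16 in the 72 hpf libraries.

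Shares were compared within each of the 16 steps with several members, 53 shares in all. Not all of these are shares of paralogs. The genes of pyruvate dehydrogenase encode different subunits, and the phosphatase genes minpp1a and minpp1b were counted with the phosphoglycerate mutases. A scale factor common to all counts of a library cancels in a share. Shares can still vary with library size where counts do not grow in proportion to it, which was not tested. They are shares of reads: transcript lengths were not used, multi-mapping reads had been removed, and the shares of a step add up to 100%, so they do not rank isozymes by molecules and are not independent. In 14 shares, spread over 9 steps, the stages did not overlap, and in a step of 2 members a difference counts for both. Shares in other gene families were not computed, so it is not known whether 14 is many. Normalized counts of single genes are a different measure. They did not overlap for 9 of the 59 genes, 7 higher and 2 lower at 72 hpf. Of all genes tested, 16.6% did not overlap, 7.24% higher and 9.32% lower. With 3 libraries a stage the smallest p of an exact permutation test is 0.1, so no share can pass 0.05 by it. Besides those named above, the share of aldoaa was lower in every later library, with 46.7, 51.8 and 49.8% at 48 hpf and 45.6, 43.3 and 43.3% at 72 hpf. The neuronal aldolase gene aldocb had 14.8, 5.50 and 10.6% at 48 hpf and 12.2, 17.1 and 16.7% at 72 hpf, with overlap. Ventricular markers (6 of 7 found, irx4a at 0 in every library) summed to 1014 to 1682 CPM at 48 hpf and to 566 to 825 CPM at 72 hpf. Of 5 tested, 1 had a higher estimate at 72 hpf (hey2, with 0, 39 and 0 raw counts and then 41, 26 and 74). The paper also describes low signal of the red myh7 reporter in the atrium. The part of ventricular cells in the shares of eno3, pfkmb and aldoaa was not tested.

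**Figure D4:**
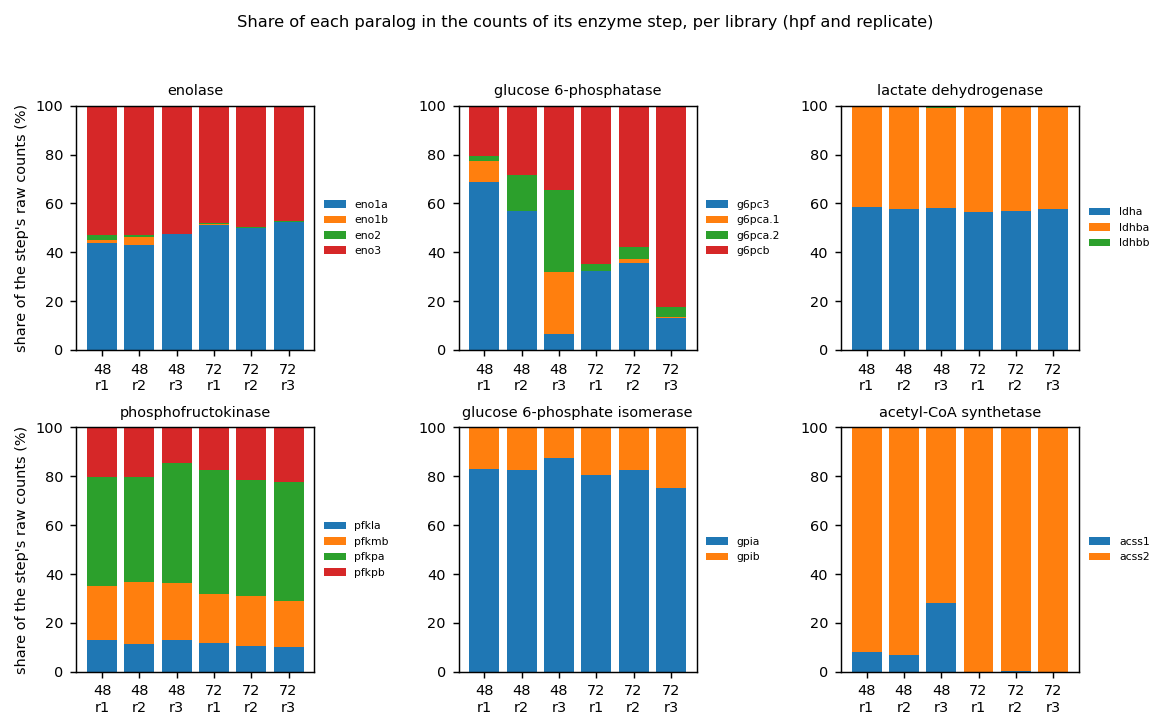
Share of each paralog in the raw counts of its enzyme step, in percent, 1 stacked bar per library (48 or 72 hpf, replicates 1 to 3). In the enolase bars eno3 is the larger part at 48 hpf, at 52.6 to 53.1%. At 72 hpf eno1a has 49.8 to 52.2%, and in replicate 2 it is nearly equal to eno3 (49.8 and 49.6%). The g6pcb part grows from 20.5 to 34.7% at 48 hpf to 57.9 to 82.4% at 72 hpf. The acss1 part is visible in the 48 hpf bars and not at 72 hpf.

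Pyruvate dehydrogenase carries pyruvate into the citrate cycle, and its 4 genes had nearly the same small estimate. Their log2 fold changes lay between 0.19 and 0.22 for dlat, dldh, pdha1a and pdhb, which encode the catalytic subunits of the complex. The gene dlat had 2273, 2165 and 2012 raw counts in the 48 hpf libraries and 2631, 2248 and 2002 in the 72 hpf libraries. Shares within the complex were even steadier: dlat took 33.1 to 35.7% at 48 hpf and 32.6 to 35.4% at 72 hpf, and pdhb took 20.8 to 21.1% and 20.3 to 21.5%. Summed over the complex, normalized counts were 6162 ± 1308 at 48 hpf and 7094 ± 550 at 72 hpf and overlapped. The 4 genes were all above 1000 raw counts, and the raw counts of each varied less than library totals, as in 58.0% of all genes with such a mean.

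Acetyl-CoA synthetases make acetyl-CoA from acetate. The mitochondrial form is encoded by acss1, on chromosome 17 (25833947 to 25853922, danRer11). This gene had 51, 48 and 75 raw counts in the 48 hpf libraries and 0, 1 and 0 in the 72 hpf libraries. It was present in every earlier library and at or under 3 counts in every later one. Pooled, 174 counts stood against 1. Divided by the total counts of each stage, the ratio between 48 and 72 hpf was 156, with an exact 95% interval of 27.6 to 6192 for counting error only. The adjusted p was 0.370 with edgeR's quasi-likelihood test and 0.000592 with DESeq2, and the direction held in all 18 other settings. The cytosolic and nuclear form acss2 had 582, 649 and 193 raw counts in the 48 hpf libraries and 524, 515 and 512 in the 72 hpf libraries, and the stages overlapped. Leukocyte markers were also lower at 72 hpf in these libraries, with 10 of 10 found and all 10 tested having a lower estimate. Their sum was 372, 337 and 763 CPM at 48 hpf and 3.08, 95.2 and 3.08 CPM at 72 hpf, and spi1b, which defines myeloid cells, had 154 to 316 raw counts at 48 hpf and 0 or 1 at 72 hpf. In replicate 2 at 72 hpf, where 81 counts of lcp1 and 94 of mpeg1.1 remained but spi1b had 0, acss1 had 1 count and eno1b had 0. In replicate 3 at 48 hpf, where the leukocyte sum was highest, acss1 was highest too and eno1b had 1 count. For acss1 the 48 hpf libraries had 10.8, 8.53 and 20.3 CPM, and for eno1b they had 8.68, 18.8 and 0.271 CPM. Single markers of other cell types were lower at 72 hpf too. The endothelial gene fli1a had 152, 333 and 165 counts in the 48 hpf libraries and the neuronal gene elavl3 had 135, 376 and 51, and both had 0 in every 72 hpf library. Other markers of these lists went the other way. Of 6 tested in each list, 1 endothelial marker (nfatc1) and 3 neuronal markers had a higher estimate at 72 hpf. Their whole lists (8 of 8 found in each) overlapped between the stages. Endothelial markers had 123 to 379 CPM and then 86.4 to 332 CPM, and neuronal markers had 79.0 to 158 CPM and then 60.9 to 139 CPM. Of 5 atrioventricular canal markers tested, 0 had a higher estimate, and their sum was 1061 to 1227 CPM and then 707 to 884 CPM. The part of any of these cells in the counts of acss1 and eno1b was not tested, and in bulk RNA fewer cells of a type and less RNA per cell cannot be told apart.

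The enzymes of alcohol and aldehyde metabolism in the term number 10, and 8 of them had an estimate above 0. Aldehyde dehydrogenases oxidize aldehydes to acids. Their gene aldh9a1b had 366, 399 and 212 raw counts in the 48 hpf libraries and 478, 508 and 337 in the 72 hpf libraries. After scaling the stages did not overlap, with 307 ± 44.8 and 460 ± 42.8 normalized counts and a log2 fold change of 0.59 ± 0.20 (SE; adjusted p = 0.494, edgeR). No difference was shown for its paralog aldh9a1a.1, which had 781, 901 and 629 raw counts in the 48 hpf libraries and 607, 686 and 601 in the 72 hpf libraries, a log2 fold change of -0.14 ± 0.15 (SE) and overlap between the stages. Its share of the aldehyde dehydrogenase counts was 17.3 to 22.4% at 48 hpf and 13.7 to 16.2% at 72 hpf. The gene aldh16a1 had 210, 176 and 148 raw counts in the 48 hpf libraries and 281, 409 and 181 in the 72 hpf libraries, a log2 fold change of 0.80 ± 0.32 (SE; adjusted p = 0.565, edgeR) that was 0.52 without replicate 2 at 72 hpf. For aldh7a1, a lysine-degrading enzyme, the counts were 664, 589 and 606 and then 773, 749 and 698, higher in every later library before and after scaling (log2 fold change 0.36, standard error 0.20). The tandem pair aldh2.1 and aldh2.2, mitochondrial forms that lie 1678 bases apart on chromosome 5, differed little, and aldh2.2 had 1080, 990 and 916 raw counts in the 48 hpf libraries and 1139, 1003 and 931 in the 72 hpf libraries. As near copies they may lose reads that map to both. The alcohol dehydrogenase gene adh5 and the aldehyde reductase gene akr1a1b had log2 fold changes of 0.18 and 0.01.

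At the side entries, phosphoglucomutase links glycogen with glucose 6-phosphate, and pgm1 had 1059, 764 and 896 raw counts in the 48 hpf libraries and 980, 958 and 800 in the 72 hpf libraries. The gene pgm2 had 0, 2 and 0 counts in the 48 hpf libraries and 25, 30 and 0 in the 72 hpf libraries. Pooled, 55 counts stood against 2. Divided by the total counts of each stage, the ratio between 72 and 48 hpf was 30.7, with an exact 95% interval of 8.10 to 260 for counting error only. However, replicate 3 at 72 hpf had none and the adjusted p was 0.610 (edgeR). The aldose epimerase gene galm had a log2 fold change of 0.08, with overlap. The ADP-dependent glucokinase gene adpgk, which uses ADP in place of ATP, had 107, 216 and 5 counts in the 48 hpf libraries and 91, 180 and 1 in the 72 hpf libraries, low in replicate 3 of both stages.

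Many of the less abundant genes were uneven between libraries of 1 stage. The authors had few sorted cells per library and left out quality control of the RNA because so little was available. The part of this in the unevenness was not tested. In all, 14 of the 59 genes were at or under 3 counts in at least 1 library, and these 14 had standard errors of 1.33 to 2.78 on the log2 scale. Among them minpp1b and aldh3a1 had 0 counts in replicate 1 at 72 hpf and 42 to 142 in the other libraries of that stage. The lactate dehydrogenase gene ldhbb had 0, 3 and 30 counts in the 48 hpf libraries and 11, 3 and 0 in the 72 hpf libraries. Libraries with the same number at both stages shared some of these gaps, as in pck2 and adpgk. Their deviations over all 16100 genes correlated at -0.01, 0.10 and 0.01 for replicates 1, 2 and 3 (Pearson, across genes, which are not independent). Pairs with different numbers lay between -0.05 and 0.05. Whether same-numbered libraries share a batch was not tested.

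**Figure D5:**
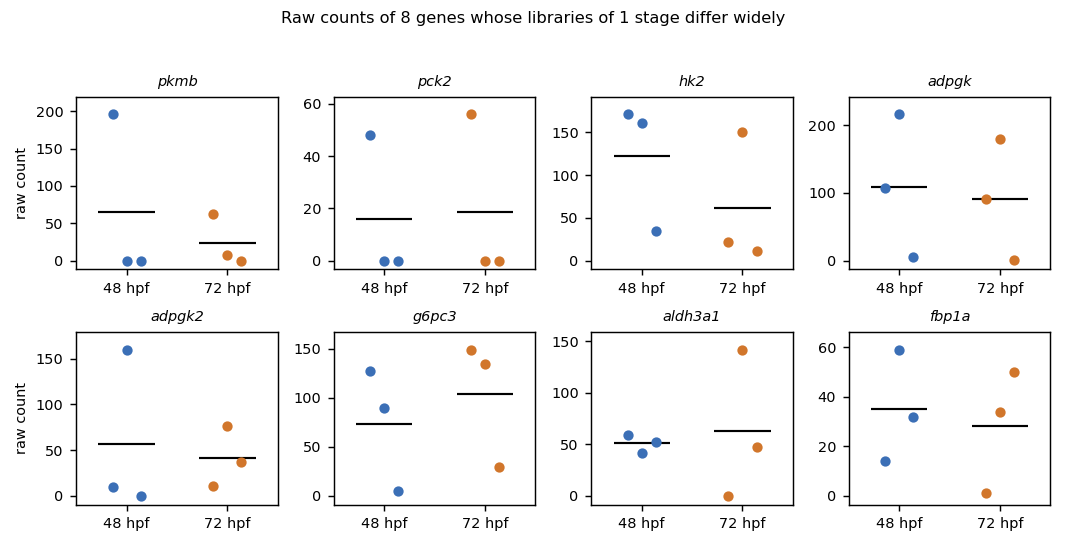
Raw counts of 8 less abundant genes of the pathway, chosen after their values were seen, with 1 point per library (blue 48 hpf, orange 72 hpf; replicates 1 to 3 from left to right) and the mean as a line. Libraries of 1 stage differ widely, as in pkmb with 196, 0 and 0 counts at 48 hpf, and the stages overlap in all panels.

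Overlapping genes could affect a few of these counts, since strand use in counting is not given in the sources used here. On danRer11, pgam2 lies within the span of rpl17 on the opposite strand over 4973 bases, eno2 overlaps an antisense gene over 1317 bases and pkma one over 479 bases. Their counts are uncertain to that extent. Overlaps of 117 bases or less were seen for gpib, tpi1b and aldh9a1b.

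Genes that feed or control the pathway but are not in the KEGG list were read from a list of 68, of which 55 were tested. At an unadjusted p-value under 0.05 (edgeR), 3 were higher and 3 were lower at 72 hpf, where 3.12% and 5.63% of all genes were. Of the 55 genes, 0 were called by edgeR. DESeq2 called 1 of them lower, against 2.73% of all genes. The median log2 fold change of the 55 genes was 0.08. The higher ones were pdk2a, a kinase that inhibits pyruvate dehydrogenase, pdhx, a structural subunit of that complex, and gyg1a, which primes glycogen. The gene pdk2a had 1868, 1644 and 1608 raw counts in the 48 hpf libraries and 2573, 2144 and 1925 in the 72 hpf libraries, every later library being higher, with a log2 fold change of 0.48 (adjusted p = 0.496, edgeR). The lower ones were pfkfb4b, hif1al and slc2a6. Of these pfkfb4b, whose enzyme sets the level of the phosphofructokinase activator fructose 2,6-bisphosphate, had 782, 1123 and 937 raw counts in the 48 hpf libraries and 642, 589 and 554 in the 72 hpf libraries (log2 fold change -0.55, adjusted p = 0.486, edgeR). Its stages did not overlap. The hypoxia-inducible factor gene hif1al had 2064, 2336 and 1592 raw counts and then 1806, 1449 and 1249, which overlap before and not after scaling. The glucose transporter gene slc2a6 had 21, 182 and 184 counts in the 48 hpf libraries and 0, 9 and 0 in the 72 hpf libraries, and was the gene called by DESeq2. Leukocyte markers were lower at 72 hpf as well, and their part in this difference was not tested. The glucose transporter gene slc2a1b had 1300, 1166 and 1031 raw counts in the 48 hpf libraries and 1329, 1299 and 1058 in the 72 hpf libraries, with a log2 fold change of 0.19. The lactate transporter gene slc16a1b had 664, 365 and 528 and then 783, 708 and 544, with a log2 fold change of 0.45 (adjusted p = 0.709, edgeR). After scaling, slc2a1b and slc16a1b were higher in every later library. Of 8 glucose transporter genes tested, however, 3 had a higher estimate, and their median log2 fold change was -0.48. In the list of lactate and pyruvate transporters 4 of 5 tested had a higher estimate, with a median of 0.23.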

How the data were processed

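Gene counts of 6 libraries of sorted zebrafish atrial CMs (3 at 48 hpf, 3 at 72 hpf) were analysed. Total RNA had been amplified with a SMART-Seq HT kit. The authors used Trimmomatic 0.39 to trim reads and STAR 2.7.10a for alignment to danRer11 (Ensembl annotation), removed duplicate (Picard 3.0.0), multi-mapping, ribosomal and mitochondrial reads, and deposited raw counts per gene from featureCounts 2.0.4 without reads overlapping several genes. Here all genes with a mean normalized count above 5 were compared between the stages with edgeR 4.0.16 in R 4.3.3 (TMM, robust quasi-likelihood test, Benjamini-Hochberg adjustment over all genes tested), with calls at an adjusted p below 0.05 and a log2 fold change beyond 0.585 (1.5-fold), as in the study, which used DESeq2. Normalized counts are CPM with TMM factors, at the mean library size. Alternatives were DESeq2 1.42.0, limma 3.58.1 voom with quality weights, other scalings and filters, no fold threshold, the replicate number or the sorter as a covariate, and fits without a library. The members and lists were chosen with earlier results of these data known. Values per library are given for the 5 genes with the lowest p in each direction, genes at or under 3 counts throughout a stage, and the most counted gene of each step with any paralog whose share did not overlap; others are named beside them. The steps of dldh and aldh16a1 were read from the table's protein names. Replicates 1 and 2 were sorted on both a FACSAria and a BigFoot instrument and replicate 3 on the BigFoot only. Cells came from pooled hearts over several sorting sessions, and the sources used here do not say which sessions fed which library, so p-values measure only the spread between these libraries. Intervals and floors cover counting error only. On counts simulated with known changes from edgeR's own fitted dispersions, DESeq2 made far more false calls than edgeR. This setting may favour edgeR, and it does not measure the errors of either test in these libraries. A call by DESeq2 alone is given as such. Values of 1 gene of the list are not reported here, although it is part of the counts over the list. There were 0 other columns of counts per library.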

Additional observations from a re-analysis of the deposited data

How the results depend on the processing

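The log2 fold changes of 12 named genes kept their direction under every alternative that tested them. DESeq2 called 181 genes higher and 437 lower over the whole table and 1 and 2 of the 59 genes, with log2 fold changes of 2.83 for g6pcb, -7.28 for acss1 and -6.78 for eno1b. Voom, the sorter as a covariate and replicates 1 and 2 only called 0 genes higher, and the fit without a filter called 2 higher and 9 lower. Of the 59 genes, filterByExpr left 53, with 1 lower at an unadjusted p under 0.05, and replicates 1 and 2 only gave 3 higher. Leaving out 1 library gave 0 to 1 genes called higher over all genes, and 2 to 6 of the 59 genes higher and 1 to 2 lower at an unadjusted p under 0.05 (3 and 1 without replicate 2 at 48 hpf, 2 and 2 without replicate 1 at 72 hpf). It moved the median log2 fold change of the 59 genes between 0.01 (without replicate 2 at 48 hpf) and 0.26 (without replicate 3 at 48 hpf). With a minimum mean of 0 or 20 raw counts in place of 5 the list held 67 or 54 genes.

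The numbers 1 to 3 mark no shared animals, but whether same-numbered libraries share a sorting session is not known. Their deviations correlated at -0.01, 0.10 and 0.01, and those of libraries with different numbers at -0.05 to 0.05. With the replicate block edgeR called 0 genes higher over all genes and 4 of the 59 were higher at an unadjusted p under 0.05. DESeq2 with the replicate block, added after the data were seen, called 324 genes higher and 802 lower, 2 and 2 of the 59, with 10 higher at an unadjusted p under 0.05 and log2 fold changes of 2.83 for g6pcb, 0.59 for aldh9a1b, -7.25 for acss1 and -5.67 for eno1b. Also added then were equal library sizes, with 1 of the 59 higher at that limit and a median of -0.17 over all genes, and a fit without replicate 3 at 48 hpf and replicate 2 at 72 hpf, the libraries with the most erythrocyte marker counts, which called 0 genes and had 2 of the 59 higher. For single genes the cause of these differences was not tested. The share of all genes at an unadjusted p under 0.05 was taken for the main fit and plain DESeq2 only. Counts of the 59 at that limit in the other settings therefore have no such share beside them and cannot be read as a result about the list.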
